A study of Homo sapiens with 96 samples.

Results

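The 50 genes described here act in DNA replication and in the G1/S step of the cell cycle, and were taken by name as a fixed list from the gene names of 10 expression tables of hTERT-RPE1, a telomerase-immortalised human retinal pigment epithelial cell line. The list leaves out the MCM helicase, the cyclins and the nucleotide enzymes. Of the 50 genes, 49 were found in at least 1 table and 48 in all 10, among 14746 to 22295 genes per table, and E2F8 is not analysed here. Levels are RPKM, read counts scaled by gene length and library size, and most tests ask whether a difference on the log2(RPKM + 0.25) scale exceeds the spread between libraries. Replicates are separate libraries of 1 cell line. Nothing in the labels says that they came from separate cultures, so p-values reflect only library-to-library spread, part of which may be technical.

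The study measured nascent RNA, which is RNA still being or just made, and the matching input RNA, each from whole cells and from nuclei. In each of these 4 tables, 2 libraries of asynchronous cells stand beside 2 libraries of each of 5 successive S-phase windows, labelled T0-2, T2-4, T4-6, T6-8 and T8-10, whose time unit the labels do not state. Synchronised cells had been held with 400 uM mimosine for 22 hours, which stops cells near the start of S phase, and mimosine is not named for asynchronous libraries, so S phase and the drug treatment cannot be told apart in any comparison of windows with asynchronous cells. Knockdown libraries came from cells given 130 to 150 pmol of an LNA GapmeR, an antisense oligonucleotide whose RNA target is cut by RNase H, against the lincRNAs LINC00704, LUCAT1 or MIAT, or with a control LNA. The synchronised knockdown series has 2 libraries of each LNA at the points S0, S2, S4 and S6, and the same 8 control libraries serve all 3 knockdowns. The asynchronous series has 3 libraries per knockdown and the same 2 control libraries for all 3.

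Depth, recovered as whole reads, ran from 6.39 to 50.5 Mreads per library. Of 10 pigment epithelium markers looked for, OTX2, KRT8 and KRT18 had median levels of at least 0.5 RPKM in every table. MITF did so in every table but whole-cell input. RLBP1, BEST1, TYR, PMEL and SERPINF1 did not reach that median in any table. The defining visual cycle marker RPE65 was at 0.0688 RPKM or lower as a median in the tables that list it. Of the markers of other cell types, HBB alone reached a median of 0.5 RPKM, in the whole-cell nascent table, where whole-cell nascent T0-2 replicate 2 held 72.4 RPKM; with that library left out, 0 members were called in the whole-cell nascent table, as with it. Of the LUCAT1 knockdown libraries, 3 of the 8 synchronised ones stood apart: OTX2 was at 0.229, 0.538 and 0.351 RPKM in S0 library a, S2 library a and S6 library b, and at 1.205 to 3.77 RPKM in the other 13 libraries of that table. These 3 carry the same number, 2, in the column names. In asynchronous cells LUCAT1 KD replicates 2 and 3 held 0.390 and 0.293 RPKM of OTX2, against 2.26 RPKM in replicate 1 and 2.28 and 2.60 RPKM in the controls, and 14.9 and 15.4 RPKM of KRT18, against 46.7, 67.3 and 72.6 RPKM. The targeted lincRNA was lower in every knockdown library than in every control library of its table: LINC00704, listed as MANCR, fell in asynchronous cells from 1.85 ± 0.13 RPKM (SD, n = 2) to 0.635 ± 0.155 RPKM (SD, n = 3) on average. In the same cells LUCAT1 averaged 0.482 RPKM in control and 0.188 RPKM in knockdown libraries, and MIAT 0.362 and 0.0948 RPKM.

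Replication starts when the origin recognition complex, CDC6 and CDT1 load the MCM helicase in G1, and CDC45 and the GINS complex then switch the helicase on. Polymerase alpha with primase lays down primers, the RFC complex loads the PCNA clamp, and polymerases delta and epsilon extend the strands. E2F factors bound to DP partners turn many of these genes on at the G1/S border; E2F1 and E2F2 are activators, whereas E2F7 and E2F8 are repressors that are themselves made in S phase and shut E2F targets off again.

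The promoters of 4 genes the results turn on are shown with that of E2F7, which was higher in windows than in asynchronous cells where E2F1 and UNG were lower, to show which carry E2F-type letters. Each runs 5′ to 3′ along the gene from 250 bases before its start to 50 after, from RefSeq on GRCh38.p14, and capitals mark letters that match an E2F-type site. The E2F1 window is chr20:33686336-33686635 on the minus strand, E2F7 is chr12:77065520-77065819 on the minus strand, UNG is the second of its 2 listed starts at chr12:109097922-109098221 on the plus strand, while the window of its other start, chr12:109097347-109097646, has no match, CDC6 is chr17:40287629-40287928 on the plus strand, and POLA1 is chrX:24693668-24693967 on the plus strand.
E2F1: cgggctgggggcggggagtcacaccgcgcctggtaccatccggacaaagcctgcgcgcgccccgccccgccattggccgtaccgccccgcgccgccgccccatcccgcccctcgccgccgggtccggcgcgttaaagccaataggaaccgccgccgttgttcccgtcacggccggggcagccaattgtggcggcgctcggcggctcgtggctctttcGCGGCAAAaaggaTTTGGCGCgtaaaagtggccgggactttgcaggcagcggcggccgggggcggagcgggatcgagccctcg
CDC6: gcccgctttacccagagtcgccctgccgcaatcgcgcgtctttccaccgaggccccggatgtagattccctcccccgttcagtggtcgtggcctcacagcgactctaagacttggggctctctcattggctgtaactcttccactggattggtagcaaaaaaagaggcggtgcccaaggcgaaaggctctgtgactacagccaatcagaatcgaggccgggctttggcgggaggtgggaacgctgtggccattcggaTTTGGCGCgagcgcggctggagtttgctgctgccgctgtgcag
UNG: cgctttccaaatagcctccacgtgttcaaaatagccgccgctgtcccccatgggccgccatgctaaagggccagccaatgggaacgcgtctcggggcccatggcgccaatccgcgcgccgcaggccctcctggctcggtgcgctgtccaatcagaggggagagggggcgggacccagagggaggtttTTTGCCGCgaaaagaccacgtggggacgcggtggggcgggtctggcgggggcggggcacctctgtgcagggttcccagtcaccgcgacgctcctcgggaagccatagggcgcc
POLA1: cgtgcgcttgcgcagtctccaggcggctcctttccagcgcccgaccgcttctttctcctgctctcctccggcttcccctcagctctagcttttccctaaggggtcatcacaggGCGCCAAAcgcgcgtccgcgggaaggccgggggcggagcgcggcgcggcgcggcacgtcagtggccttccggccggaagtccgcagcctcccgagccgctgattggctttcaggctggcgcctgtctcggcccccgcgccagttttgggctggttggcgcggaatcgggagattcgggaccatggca
E2F7: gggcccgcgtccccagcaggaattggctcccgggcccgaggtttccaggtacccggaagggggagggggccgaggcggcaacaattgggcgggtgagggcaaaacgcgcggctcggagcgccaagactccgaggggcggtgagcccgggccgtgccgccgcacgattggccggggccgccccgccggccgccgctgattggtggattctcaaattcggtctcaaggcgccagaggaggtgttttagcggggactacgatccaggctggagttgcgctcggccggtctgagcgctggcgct

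The letters searched on both strands were TTTCCCGC, TTTCGCGC, TTTGCCGC and TTTGGCGC, and matches to them were counted apart from those to the other letters below. The E2F1 window holds 2 matches, beginning 33 and 20 bases before the start, the UNG window 1 at 63 before and the POLA1 window 1 at 137 before, and the CDC6 match begins 7 bases after the start. The E2F7 window has no match to these letters. Of the 50 genes, 44 had a promoter in the RefSeq table, and 22 of the 44 had a match at 1 or more of their starts, beside 3.99% of the 27305 genes with promoters of the same length. Counted by start, 40.4% of the 57 member windows and 3.31% of all 35116 windows held a match. The letters CCAAT were in 52.6% of member windows and 34.6% of all windows, and the CHR letters of late cell cycle genes, TTTGAA or TTCGAA, in 5.26% and 16.4%. A match describes the letters and says nothing of binding.

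PCNA, POLE3, a histone-fold subunit of polymerase epsilon, and POLD2, the second subunit of polymerase delta, were the members with the highest mean RPKM in asynchronous cells in 3 of the 4 fraction tables. Mean PCNA levels there were 22.5 RPKM in whole-cell nascent, 15.97 in whole-cell input, 11.6 in nuclear nascent and 11.3 RPKM in nuclear input RNA. The authors' lengths cover the whole gene with its introns (median ratio to the RefSeq gene span 1.00036), so RPKM understates the mature RNA of long genes, and levels are compared here within a gene. FEN1, the flap endonuclease, was listed at 0.496 RPKM or less in every library of the tables that hold it and was never tested, and RPA3, the small subunit of the single-strand binding complex RPA, shares 94.8% of its span with UMAD1. GINS3 stayed under the filter of 0.5 RPKM in 2 libraries in all 10 tables, and 41 to 46 members were tested per comparison. The authors' length of GINS3, 111065 bp, is 8.12 times its RefSeq span, which lowers its RPKM. It had 1110 and 685 reads in the asynchronous control libraries, where GINS4, which was tested, had 504 and 304. POLD3, under the filter in the knockdown tables, has a length 2.28 times its RefSeq span. Other genes also cover 100% of the span of DSCC1, 73.2% of RPA1, 68.0% of GINS4, 35.4% of RFC5 and 27.7% of POLA2, and whether the authors counted by strand is not stated in the labels, so the values of these genes are uncertain.

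**Figure D1:**
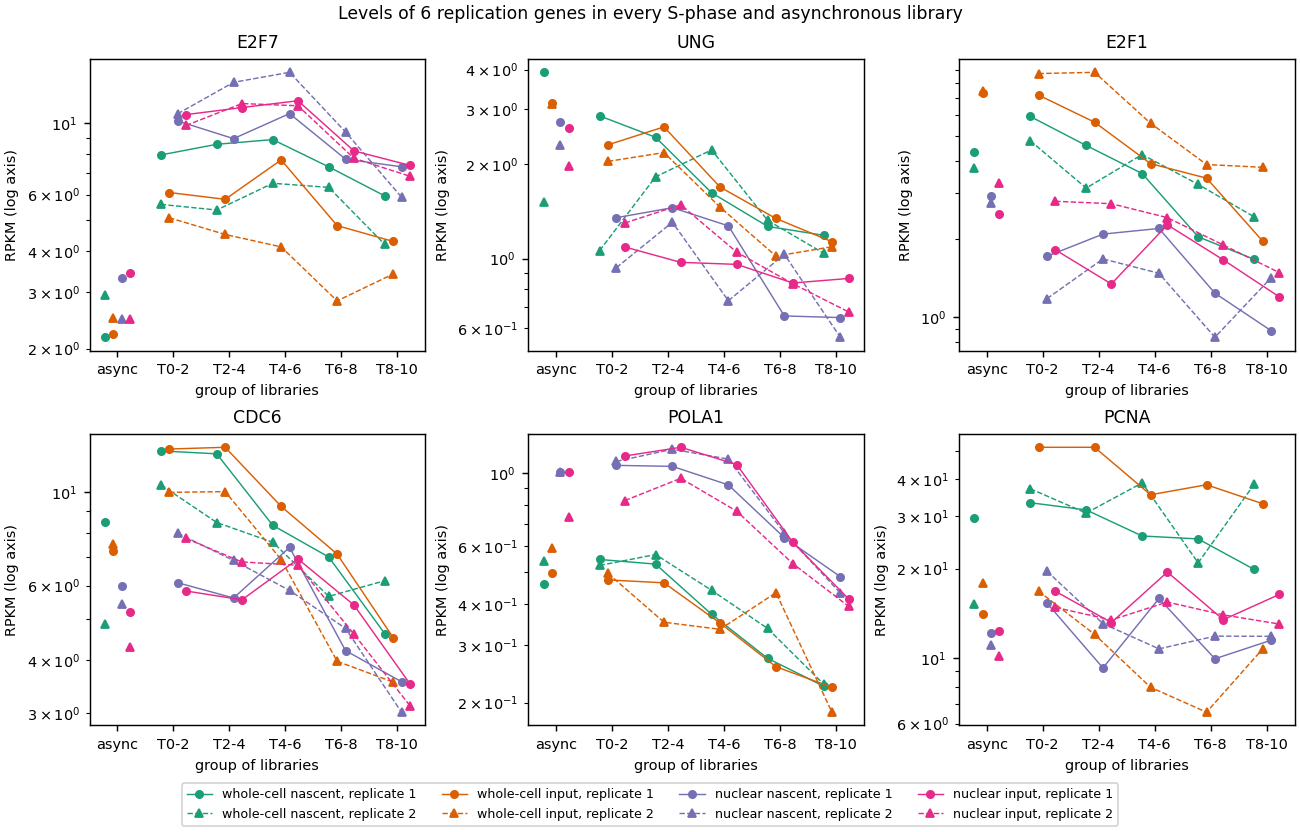
RPKM on a log axis of 6 members in each library of the 4 fraction tables, by asynchronous cells and window; circles are replicate 1, triangles replicate 2, and lines join windows of 1 replicate number. In both nuclear tables E2F7 is higher in every window library than in every asynchronous library and UNG is lower, while CDC6 and POLA1 decline towards T8-10.

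The first question was which replication genes differ between S-phase windows and asynchronous cells. In nuclei, E2F7 rose and UNG fell in both nascent and input RNA, E2F1 fell in nascent RNA and GINS2 fell in input RNA, while the other members did not pass the test. In nuclear nascent RNA, 3 of 45 tested members were called, beside 4.5% of the 9784 genes tested, and in nuclear input RNA 3 of 45, beside 4.57% of 9633. The median member difference was -0.03 and that of all genes -0.01 in nuclear nascent RNA, and 0.12 against 0.004 in nuclear input RNA. Fewer cells in a phase and less RNA per cell cannot be told apart in such bulk libraries. In these tables the share of members that changed was therefore close to the background. The called genes are an E2F repressor, an E2F activator, a DNA repair glycosylase and a GINS subunit.

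E2F7 measured 3.31 and 2.48 RPKM in the asynchronous nuclear nascent libraries. Its window libraries there were 10.1, 8.94, 10.7, 7.72 and 7.31 RPKM from T0-2 to T8-10 in replicate 1, and 10.7, 13.4, 14.3, 9.37 and 5.89 RPKM in replicate 2. Every window library was above both asynchronous ones, and the lowest were at T8-10. The mean window difference was 1.65 ± 0.22 (log2, SE; limma adjusted p = 0.00745), and in nuclear input RNA it was 1.61 ± 0.16 (adjusted p = 0.0044). At T0-2 alone, E2F7 was already 1.77 ± 0.29 higher in nuclear nascent (adjusted p = 0.0168) and 1.72 ± 0.20 higher in nuclear input RNA (adjusted p = 0.00974). In whole cells E2F7 was 1.29 ± 0.27 higher in nascent RNA (adjusted p = 0.0771) and 0.93 ± 0.31 higher in input RNA (adjusted p = 0.401), neither past the threshold, although each of its whole-cell window libraries was above both asynchronous libraries.

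UNG encodes the glycosylase that removes uracil from DNA, including at the fork. It measured 2.717 and 2.298 RPKM in asynchronous nuclear nascent libraries and between 0.561 and 1.45 RPKM in the 10 window libraries, so the groups did not overlap. It fell by 1.19 ± 0.20 on the log2 scale (adjusted p = 0.0168), and in nuclear input RNA by 1.03 ± 0.17 (adjusted p = 0.0141). E2F1, an activator of G1/S genes, measured 2.94 and 2.76 RPKM in asynchronous nuclear nascent libraries and 0.836 to 2.196 RPKM in windows, and fell by 0.89 ± 0.22 (adjusted p = 0.0497), a call lost with a pseudocount of 0.1 (adjusted p = 0.0529). GINS2, a subunit of the ring that activates the helicase, measured 1.54 and 1.27 RPKM in asynchronous nuclear input and 0.646 to 0.973 RPKM in windows, and fell by 0.61 ± 0.13 (adjusted p = 0.0364), a call lost with median scaling (adjusted p = 0.0538). PRIM2, the large primase subunit, was called at T0-2 in nuclear input RNA, with 1.15 and 1.14 RPKM against 0.701 and 0.524 RPKM in asynchronous cells, a difference of 0.70 ± 0.15 (adjusted p = 0.0447), a call lost without the filter (adjusted p = 0.0548) and with median scaling (adjusted p = 0.0545). At T0-2, 1 of 45 members was called in nuclear nascent RNA, beside 3.37% of genes, and 2 of 45 in nuclear input RNA, beside 3.71%. Leaving out either asynchronous library of a nuclear table left 0 of these members called in that table, as did leaving out either T0-2 library for the T0-2 calls.

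In whole cells no member was called in either table for windows against asynchronous cells, beside 0.406% of genes in nascent and 0.0305% in input RNA. These tests had no block, although same-numbered window libraries deviated together, more so in input RNA. Unadjusted p fell under 0.05 for 7 of 46 members (15.2%), beside 13.7% of all genes, and for 4 of 44 (9.09%), beside 8.8%. T0-2 against asynchronous cells gave 0 as well, beside 0.0198% and 0.0102%, with 6 and 2 members (13% and 4.55%) at unadjusted p under 0.05, beside 10.9% and 5.33% of all genes. E2F7 and ASF1B, a histone chaperone, were the 2 highest in all 4 tables, but the lowest differed: E2F2 in whole cells and UNG in nuclei. E2F2 was 1.04 ± 0.29 lower in nascent and 1.18 ± 0.30 lower in input RNA of whole cells, at adjusted p = 0.163 and 0.237. UHRF1, which recruits the maintenance methyltransferase DNMT1 to new DNA, was 1.02 ± 0.22 lower in whole-cell nascent RNA (adjusted p = 0.0771).

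Nuclear input libraries that share a replicate number deviated together, and a fit with the number as a block called many more genes. With the block, 17 of 45 members passed for windows against asynchronous cells, 9 higher and 8 lower, beside 34.4% of genes, and 19 of 45 passed at T0-2, 10 higher and 9 lower, beside 35.8%. Members higher in windows under the block included E2F7, ASF1B at 0.80 ± 0.18, LIG1, the ligase of Okazaki fragments, at 0.43 ± 0.12, PCNA at 0.40 ± 0.12, PRIM2, RFC5, CDC7, the kinase that fires origins, POLA2 and WDHD1. Those lower included UNG, POLD2 at -0.80 ± 0.10, E2F2 at -0.71 ± 0.12, GINS2, UHRF1 at -0.55 ± 0.12, E2F1, POLE3 and ORC5. E2F2 passed the filter there through asynchronous libraries alone, so its call cannot stand as support for a fall.

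**Figure D2:**
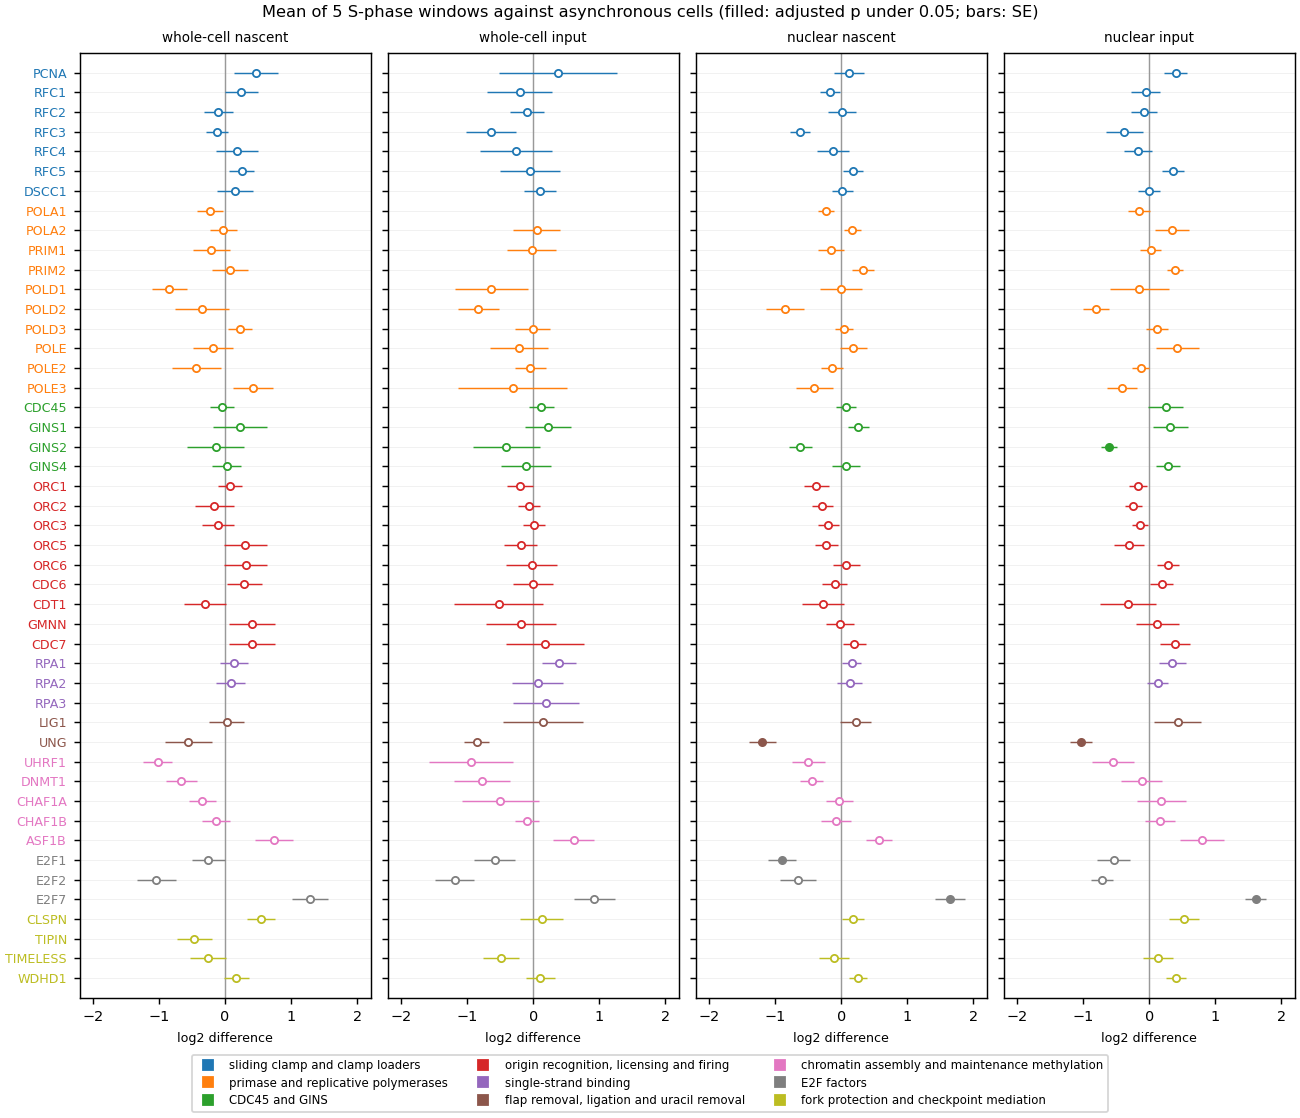
Difference of the mean of 5 windows from asynchronous cells for each tested member in the 4 fraction tables (points, log2; bars, SE), coloured by role, with filled points where the adjusted p is under 0.05 without a replicate block. E2F7 lies at 1.61 and 1.65 in the nuclear tables, and UNG at -1.03 and -1.19.

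The second question was how these genes move from the first to the last window, where all libraries share the mimosine treatment. Most members were lower at T8-10 than at T0-2 in all 4 tables, though in nascent RNA this rested mainly on replicate 1. In nuclear input RNA 32 of 45 members were lower within both replicate numbers (71.1%), beside 26.6% of all genes tested, and in whole-cell input RNA 31 of 44 (70.5%), beside 29.5%. The counts were 24 of 46 in whole-cell nascent RNA, beside 23.7%, and 23 of 45 in nuclear nascent RNA, beside 22.1%. In replicate 1, 39 of 46 members in whole-cell nascent and 39 of 45 in nuclear nascent RNA were lower (medians -0.40 and -0.39). In replicate 2 the counts were 24 and 26 (medians -0.015 and -0.063), where all genes had medians of 0.15 and 0.24. Both T8-10 libraries lay below both T0-2 libraries for 16 of 46 members in whole-cell nascent RNA (all genes, 11.7%), 14 of 44 in whole-cell input (7.52%), 19 of 45 in nuclear nascent (17.8%) and 20 of 45 in nuclear input RNA (12.3%). Median member differences were -0.27, -0.37, -0.22 and -0.36 in whole-cell nascent, whole-cell input, nuclear nascent and nuclear input RNA, where all genes had medians of 0.12, 0.09, 0.15 and 0.12.

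Without a block no member passed the test in any of the 4 tables, beside 0% of genes in each whole-cell table, 0.358% in nuclear nascent and 0.415% in nuclear input RNA. Unadjusted p fell under 0.05 for 7 of 46 members in whole-cell nascent RNA (15.2%), beside 7.6% of all genes, and for 7 of 44 in whole-cell input RNA (15.9%), beside 3.87%. It did so for 11 of 45 in nuclear nascent RNA (24.4%), beside 21.2%, and for 9 of 45 in nuclear input RNA (20%), beside 12.2%. In nuclear input RNA, where the replicate numbers pair the libraries, the block called 14 of 45 members, 1 higher and 13 lower, beside 22.2% of genes. A fit with the replicate block and the 10 window libraries alone, both chosen together after the data were seen, called 11 of 44 members in whole-cell input RNA, 2 higher and 9 lower, beside 9.73%, and 1 of 46 in whole-cell nascent RNA, beside 2.14%. It called 15 of 44 members in nuclear input RNA, 2 higher and 13 lower, beside 25.2%, and 0 of 45 in nuclear nascent RNA, beside 0.0724%, where 10 had an unadjusted p under 0.05, beside 19.8% of genes, and where same-numbered libraries did not deviate together.

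CDC6, which loads the helicase with CDT1, showed the decline in every table. In whole-cell input RNA it went from 12.6 to 4.52 RPKM between T0-2 and T8-10 in replicate 1 and from 9.97 to 3.55 RPKM in replicate 2, and in nuclear input RNA from 5.83 to 3.52 and from 7.76 to 3.12 RPKM. The T0-2 libraries were above the T8-10 libraries in all 4 tables. Under the block it fell by 0.97 ± 0.18 in nuclear input RNA (adjusted p = 0.00839) and by 1.43 ± 0.25 in whole-cell input RNA (adjusted p = 0.00768, window libraries). POLA1, the catalytic subunit of the primer-making polymerase, went from 1.13 to 0.414 RPKM and from 0.826 to 0.393 RPKM in nuclear input RNA, and fell by 0.90 ± 0.11 (adjusted p = 0.00197, block). In nuclear nascent RNA it went from 1.06 to 0.484 and from 1.09 to 0.432 RPKM, a difference of -0.90 ± 0.15 that missed the threshold without a block (adjusted p = 0.0503). CDC45, the helicase partner, went from 1.53 to 0.793 and from 2.44 to 1.30 RPKM in nuclear input RNA and fell by 0.78 ± 0.12 (adjusted p = 0.00473, block).

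Among E2F factors, E2F1 in whole-cell input RNA went from 7.17 to 1.97 RPKM in replicate 1 and from 8.69 to 3.78 RPKM in replicate 2. It fell by 1.45 ± 0.24 there (adjusted p = 0.0063, window libraries with the block) and by 0.66 ± 0.18 in nuclear input RNA (adjusted p = 0.0332, block). E2F2 went from 0.603 to 0.148 and from 0.954 to 0.317 RPKM in whole-cell input RNA, resting on 80 to 341 reads, and fell by 1.09 ± 0.15 (adjusted p = 0.00241, window libraries with the block). E2F7, higher than in asynchronous cells throughout, fell late by 0.51 ± 0.14 in nuclear input RNA (adjusted p = 0.0326, block). Other members that fell in nuclear input RNA under the block were PRIM2, ORC1, the clamp loader subunits RFC1, RFC2, RFC4 and RFC5, and DSCC1, a subunit of an alternative clamp loader, together with E2F2. In that RNA E2F2 was under 0.5 RPKM in every window library and was tested through asynchronous libraries alone. In whole-cell input RNA the fit of the window libraries alone with the block also called POLE, GINS2, CLSPN, UNG and ORC1 lower.

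Origin recognition subunits did not move as a unit. ORC1, the subunit known to be regulated through the cell cycle, went from 1.35 to 0.847 and from 1.64 to 0.928 RPKM in nuclear input RNA and fell by 0.61 ± 0.13 (adjusted p = 0.014, block). ORC2, ORC3 and ORC5 were higher at T8-10 within both numbers in both input tables. In whole-cell input RNA ORC2 went from 0.722 to 1.36 and from 0.613 to 1.14 RPKM and rose by 0.71 ± 0.15 (adjusted p = 0.0165, window libraries with the block). ORC5 rose by 0.56 ± 0.15 there, and ORC3 rose by 0.37 ± 0.11 in nuclear input RNA (adjusted p = 0.0376, block). ORC6 was at -0.00 ± 0.21 in nuclear input RNA without the block.

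PCNA illustrates how the libraries can disagree. In whole-cell input RNA it measured 51.3, 51.3, 35.5, 38.4 and 33.1 RPKM across windows in replicate 1 but 16.8, 12.01, 7.96, 6.56 and 10.7 RPKM in replicate 2, with 14.0 and 17.9 RPKM in asynchronous cells. All 5 replicate 1 windows lay above both asynchronous libraries, 4 of the 5 replicate 2 windows lay below both, and T0-2 of replicate 2 lay between them. The mean window difference was 0.37 ± 0.90. Same-numbered window libraries of this table deviated together (10 pairs, correlations 0.878 to 0.939). CDT1 in the same table split the other way, with 2.60 to 8.25 RPKM in replicate 1 windows and 10.0 to 22.2 RPKM in replicate 2 windows, against 17.0 and 11.1 RPKM in asynchronous cells. In nuclear input RNA the 10 PCNA window libraries held 13.0 to 19.5 RPKM, all above the asynchronous 12.4 and 10.2 RPKM.

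Members with E2F-type letters were compared with those without as a description. In T8-10 against T0-2 the median was -0.55 for 19 members with the letters and -0.35 for 20 without in whole-cell input RNA, and -0.28 for 20 and -0.39 for 21 in nuclear input RNA. The letters thus went with no constant order between tables.

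**Figure D3:**
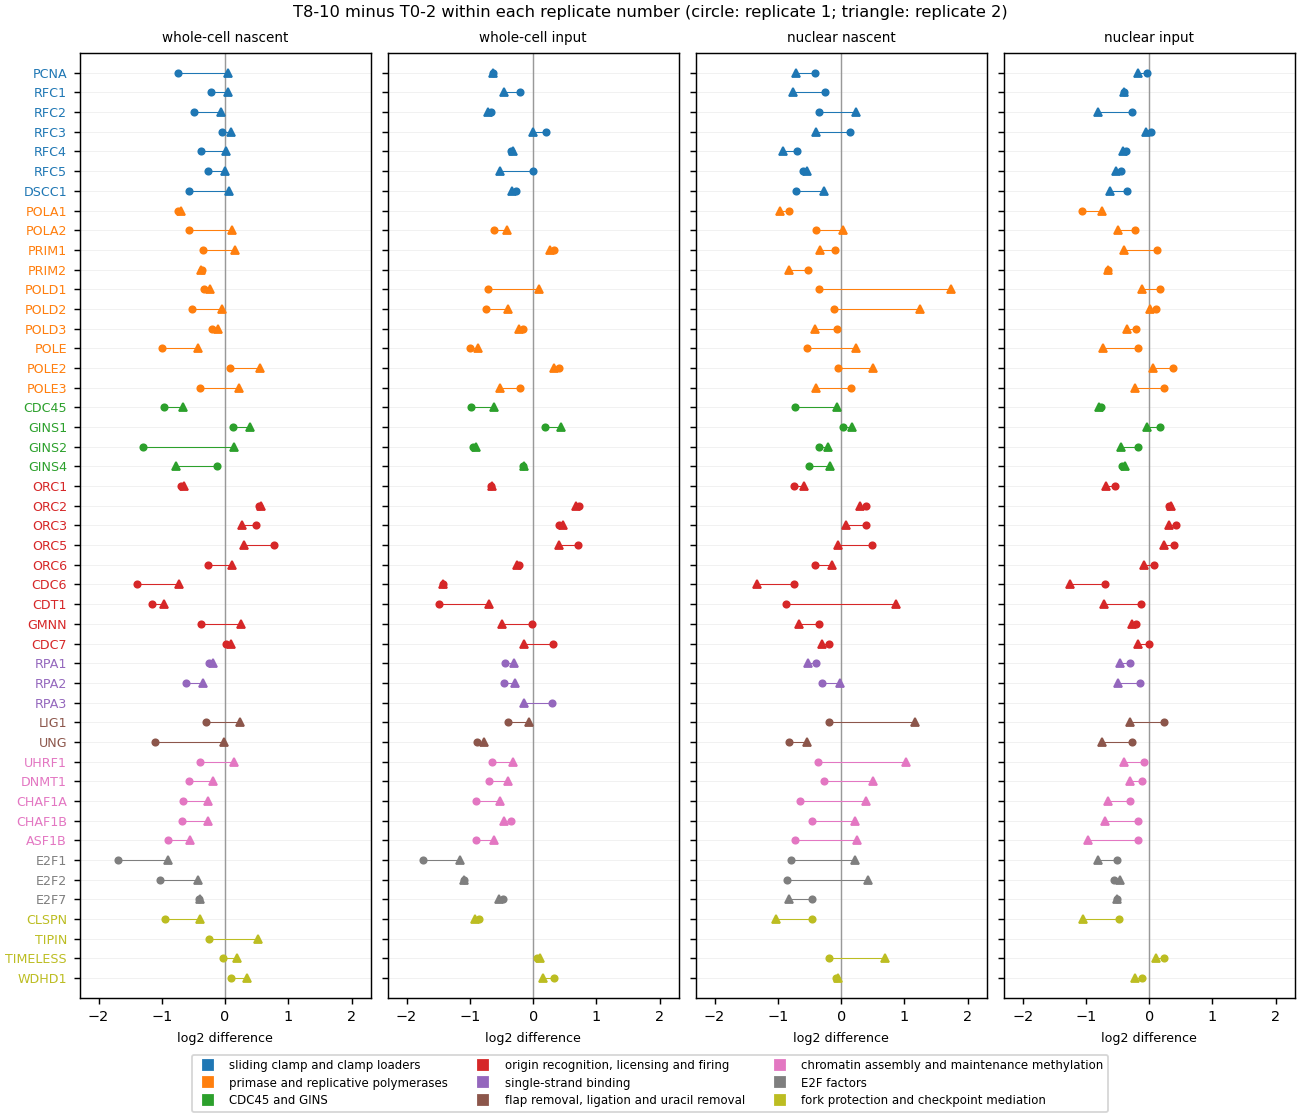
Difference of T8-10 from T0-2 (log2) for each tested member within replicate 1 (circles) and replicate 2 (triangles) in the 4 fraction tables, joined by a line and coloured by role. Most points lie left of 0, with 32 of 45 members lower within both numbers in nuclear input RNA, and ORC2, ORC3 and ORC5 lie right of 0 in both input tables.

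Some related genes outside the list were also called. Of 8 genes of the MCM helicase list, MCM3, MCM5 and MCM6 fell in both nuclear tables for windows against asynchronous cells. The shares of all genes called there were 4.5% in nuclear nascent and 4.57% in nuclear input RNA. MCM6 fell by 1.71 ± 0.16 in nuclear nascent RNA. None of the 8 nucleotide supply genes was called in any fraction table. Of the G1/S cyclins and kinases, CCNE1 rose by 1.12 ± 0.25 at T0-2 in nuclear input RNA, beside 3.71% of genes called. It fell by 1.73 ± 0.25 from T0-2 to T8-10, beside 0.415%. CCNE2 fell by 2.25 ± 0.24 between these windows in nuclear nascent RNA, beside 0.358%. From 34 tested genes of the wider pathway list, POLE4 was lower in nuclear input RNA.

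The control cells of the knockdown series, given a control LNA, gave a second view of progress through S phase. Their points S0 to S6 do not span the same interval as the windows T0-2 to T8-10. From S0 to S6, 0 of 42 members passed the test, beside 0.0741% of 9442 genes, and none had an unadjusted p under 0.05, as 9.08% of all genes had. Of the 42 members 29 were above 0 (69%), beside 57.2% of all genes, and the median was 0.11 where all genes had 0.05. Both S6 libraries lay above both S0 libraries for 12 members, beside 25.7% of genes, and below them for 4, beside 16.9%. CDT1 was highest at 0.54 ± 0.50 and PRIM2 lowest at -0.34 ± 0.32. E2F7 measured 6.39 and 6.30 RPKM at S0 and 7.95 and 9.71 RPKM at S6, and the groups did not overlap, but the difference of 0.45 was not called. CDC6, which declined from T0-2 to T8-10 in the fraction tables, measured 6.60 and 6.38 RPKM at S0 and 10.13 and 7.23 RPKM at S6, also with no overlap and not called (0.39 ± 0.33).

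The third question was whether knockdown of each lincRNA changed these genes. MIAT knockdown in asynchronous cells gave the most calls among members: 22 of 42 fell and E2F7 rose, beside 43.7% of the 9200 genes in either direction. The median member difference was -0.42 where all genes had -0.12, and 6 of 42 members (14.3%) were above 0, as were 38.1% of all genes. In the lower direction alone 31.1% of all genes were called. GINS4, counted among the 22, passed the filter through control libraries alone. By role, the calls took all 4 tested members of CDC45 and GINS, 4 of 5 of chromatin assembly and maintenance methylation, both of LIG1 and UNG, 4 of 7 polymerase and primase genes, 2 of 3 fork protection genes, 1 of 2 single-strand binding genes, 2 of 9 origin and licensing genes and 1 of 7 clamp and clamp loader genes.

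E2F1 held 8.49 and 8.25 RPKM in the control and 3.498, 4.098 and 4.192 RPKM in the MIAT knockdown libraries. It fell by 1.05 ± 0.11 (limma adjusted p = 0.00101). E2F2 fell by 0.83 ± 0.12. E2F7 went the other way, from 2.03 and 2.23 to 2.60, 2.93 and 2.76 RPKM, and rose by 0.34 ± 0.09 (adjusted p = 0.0236), a call lost when either control library was left out. No control value overlapped a knockdown value for any of the 3 E2F genes tested.

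POLD1, the catalytic subunit of polymerase delta, held 4.71 and 4.23 RPKM in control and 1.75, 2.23 and 2.08 RPKM in knockdown libraries and fell by 1.06 ± 0.12. UHRF1 went from 5.54 and 5.72 to 2.35, 2.74 and 2.71 RPKM and fell by 1.05 ± 0.10, with DNMT1 lower by 0.81 ± 0.10. CHAF1A, the large subunit of the histone deposition factor CAF-1, fell by 0.90 ± 0.12, and CDT1 fell by 0.90 ± 0.11 from 11.5 and 10.4 to 5.46, 6.25 and 5.54 RPKM. LIG1 fell by 0.92 ± 0.12 and POLE by 0.78 ± 0.09. GINS4 was lower by 0.83 ± 0.09, but its knockdown libraries held 0.303 to 0.375 RPKM, so it passed the filter through control libraries alone. The call of GINS4 therefore cannot stand as support for a fall. In each of these genes the knockdown libraries lay below both controls, as they did for 27 of 42 members, beside 44.8% of all genes. PCNA, at 16.3 and 20.3 RPKM in control and 13.2, 16.6 and 18.4 RPKM in knockdown libraries, was not called (-0.19 ± 0.17), nor were RFC1, RFC3, RFC4, RFC5, PRIM1, PRIM2, ORC2 and ORC3, which lay between -0.12 and 0.18.

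With quantile normalization RFC2, ORC6, ASF1B, POLD2 and GINS2 lost their calls. Members with E2F-type letters had a median of -0.69 over 18 genes, 16 of them below 0, and those without -0.25 over 21, 17 below 0. Of the related lists, 7 of 8 MCM helicase genes fell, 3 of 7 nucleotide supply genes with TK1 at -1.28 ± 0.14, 3 of 8 cyclins and kinases and 10 of 31 of the wider list, and none rose. In the authors' deposited table for this knockdown, 25 of 48 members have a lower and 3 a higher level at an FDR under 0.05, beside 56.8% of its genes in either direction. That table gives E2F1 as -1.07 and E2F7 as 0.36 on its log2 scale.

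**Figure D4:**
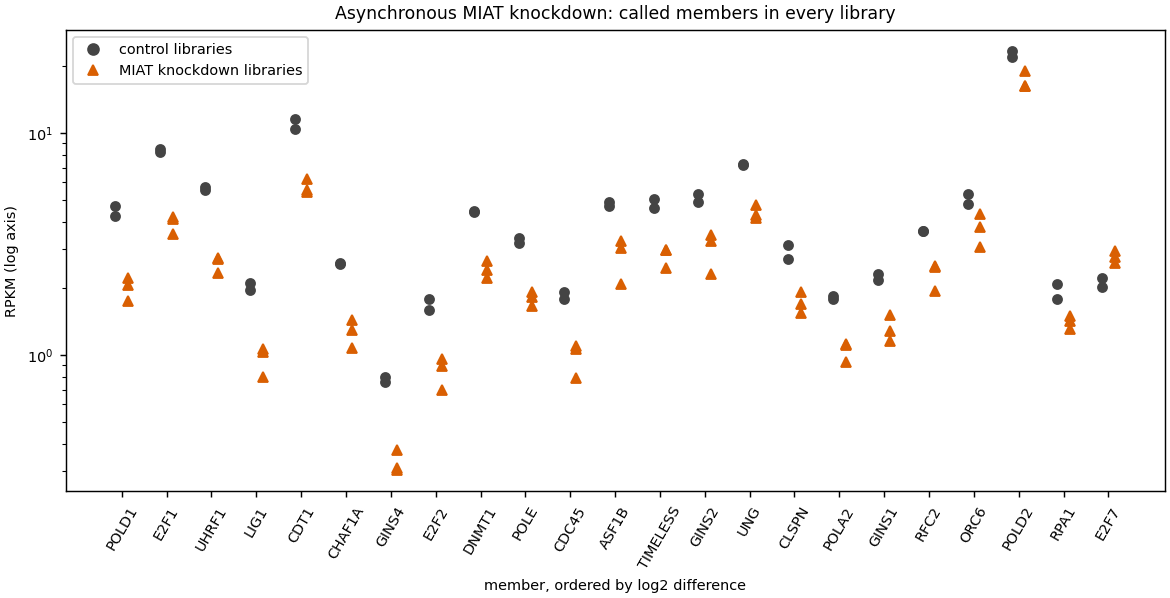
RPKM on a log axis of the 23 members called in asynchronous MIAT knockdown, in 2 control libraries (circles) and 3 knockdown libraries (triangles), ordered by difference. The knockdown libraries lie below both controls in 22 members, and E2F7 at the right lies above them.

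In synchronised cells MIAT knockdown called 2 of 41 members, beside 7.63% of 9528 genes, and both fell. ASF1B held 5.57 to 10.2 RPKM (median 7.81) in 8 control and 2.60 to 6.65 RPKM (median 4.53) in 8 knockdown libraries and fell by 0.77 ± 0.18 (adjusted p = 0.0208), and POLA2 fell by 0.52 ± 0.14 (adjusted p = 0.0469). The groups overlapped in both genes. Of 41 members 37 were below 0, with a median of -0.33 where all genes had -0.03, and 19 (46.3%) had an unadjusted p under 0.05, beside 24.7% of all genes. The count of calls moved between 0 and 10 as single libraries were left out. It was 10 without MIAT KD S0 library b, beside 10.4% of genes, 8 without MIAT KD S6 library a, beside 8.26%, and 7 without control S4 replicate 2, beside 9.43%. It was 0 without control S0 replicate 2, S2 replicate 1, S4 replicate 1 or S6 replicate 1 or MIAT KD S0 library a or S2 library a, beside 3.8% to 5.04% of genes, and 1 without control S6 replicate 2 or MIAT KD S2 library b, S4 library a, S4 library b or S6 library b, beside 5.61% to 9.88%. CCNE1 and CCND3 were the related genes called, both lower. The difference between the S6 and the S0 effect was not called for any member, beside 0% of genes, with 1 member at an unadjusted p under 0.05, beside 4.55% of all genes.

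LUCAT1 knockdown in synchronised cells called 11 of 44 members, 7 higher and 4 lower, beside 27.2% of 9870 genes. UNG held 1.496 to 2.09 RPKM (median 1.67) in control and 2.41 to 5.14 RPKM (median 2.83) in knockdown libraries, with no overlap among 16 libraries, and rose by 0.87 ± 0.18 (adjusted p = 0.00656). ORC5, DSCC1, E2F2, RFC4 and RFC1 also rose, by 0.42 to 0.52, as did TIPIN, a fork protection gene, by 0.54. ORC5 was at 0.229 to 0.411 RPKM in control libraries, so it passed the filter through knockdown libraries alone, as TIPIN did. The calls of ORC5 and TIPIN therefore cannot stand as support for a rise. LIG1 held 1.95 to 4.599 RPKM in control and 0.564 to 2.31 RPKM in knockdown libraries and fell by 0.83 ± 0.23 (adjusted p = 0.0225). POLD2 fell by 0.76 ± 0.18, ASF1B by 0.66 ± 0.14 and POLA2 by 0.46 ± 0.14.

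The 3 knockdown libraries with low OTX2, S0 library a, S2 library a and S6 library b, held the extreme values of several of these genes. UNG measured 4.78, 5.14 and 4.51 RPKM in these and 2.41 to 3.02 RPKM in the other 5 knockdown libraries. TIPIN measured 0.666, 0.571 and 0.637 RPKM in them and at most 0.303 RPKM in the other 13 libraries of the table, so it passed the filter through these 3 alone. LIG1 was at 0.564, 0.620 and 1.25 RPKM in them and at 1.597 to 2.31 RPKM in the other knockdown libraries. ORC6, not called (adjusted p = 0.148), was at 12.1, 11.3 and 12.1 RPKM in them and at 3.88 to 6.12 RPKM in all others. Without these 3 libraries, a choice made after the data were seen, 3 of 41 members were called, beside 12.8% of 9450 genes, and the knockdown groups S0, S2 and S6 then had 1 library each, assumed to vary like the others. UNG rose by 0.55 ± 0.11 (adjusted p = 0.0142) and ORC2 by 0.41 ± 0.12 (adjusted p = 0.0464), and ASF1B fell by 0.77 ± 0.15 (adjusted p = 0.014). ORC5, DSCC1, E2F2, RFC4, RFC1, LIG1, POLD2 and POLA2 lost their calls in this smaller set, with LIG1 at -0.46 ± 0.19, POLD2 at -0.57 ± 0.18 and RFC1 at 0.42 ± 0.13, and TIPIN was no longer tested.

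With all libraries, after scaling each library to a common median 6 members were called, 2 higher and 4 lower, so the split between directions depends on the scaling. Among the related lists MCM6, MCM3, MCMBP, CCNE1, CCNE2, DCK and 5 genes of the wider list rose, and TK1 and CHTF8 fell. Without LUCAT1 KD S0 library b the count was 18, beside 38.3% of genes. It was 4 to 7, beside 14.8% to 18.8% of genes, without control S0 replicate 2, S2 replicate 1, S2 replicate 2, S4 replicate 1, S6 replicate 1 or S6 replicate 2 or LUCAT1 KD S0 library a, S2 library a or S4 library b. No member was called for a difference between S6 and S0 effects, beside 0% of genes, and 0 had an unadjusted p under 0.05.

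In asynchronous cells LUCAT1 knockdown called 0 of 44 members, beside 0.209% of 9550 genes, with 9 (20.5%) at an unadjusted p under 0.05, beside 22% of all genes, and all knockdown libraries lay below both controls for 18 members, beside 31.5% of genes. Without LUCAT1 KD async replicate 1 the count was 19, 8 higher and 11 lower, beside 48.4% of genes, and both libraries then left in the knockdown group are those with low OTX2, KRT8 and KRT18. The part of that difference between libraries in the result was not tested. LIG1 went from 2.201 and 2.027 RPKM in control to 1.38, 0.490 and 0.584 RPKM, and POLD2 from 24.2 and 22.8 to 16.1, 8.17 and 8.46 RPKM, so the first library of the knockdown lay nearer the controls than the other two. UNG, higher in synchronised knockdown cells, went from 7.48 and 7.54 to 5.36, 6.12 and 6.48 RPKM, a difference of -0.32. In the authors' deposited table for this knockdown 6 members have a higher and 8 a lower level at an FDR under 0.05, beside 44.6% of its genes, with LIG1 at -1.27 and E2F7 at 0.87 on its log2 scale.

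LINC00704 knockdown called none of 42 members in synchronised cells, beside 0.0212% of genes, and none of 41 in asynchronous cells, beside 0.0557%, with 7 and 13 members (16.7% and 31.7%) at an unadjusted p under 0.05, beside 16.5% and 12.4% of all genes. In asynchronous cells 34 of 41 members were below 0 and the median was -0.26, where all genes had -0.07. There all knockdown libraries lay below both controls for 21 of 41 members, beside 25.2% of genes. CDT1 was lowest in both, at -0.54 ± 0.25 and -0.72 ± 0.17, and ORC5 was among the highest, at 0.37 ± 0.17 and 0.26 ± 0.13. In synchronised cells ORC5 was at 0.229 to 0.411 RPKM in control libraries and passed the filter through knockdown libraries alone. Leaving out LINC00704 KD S0 library b gave 3 calls in synchronised cells, beside 11% of genes. No member was called for a difference between the S6 and the S0 effect, beside 0% of genes, and 0 had an unadjusted p under 0.05. The authors' deposited table calls 1 of 48 members at an FDR under 0.05, GINS4 at -0.50 on its log2 scale, beside 7.41% of its genes. The libraries disagreed on GINS4, with 0.843, 0.414 and 0.312 RPKM in knockdown and 0.799 and 0.759 RPKM in control libraries. Knockdown replicate 1 thus lay above both controls.

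The 3 asynchronous comparisons share their 2 controls, and the 3 synchronised ones their 8, so values are set side by side without a test of likeness. ASF1B was at -0.75, -0.84 and -0.62 in asynchronous cells with MIAT, LUCAT1 and LINC00704 knockdown, and LIG1 at -0.92, -1.24 and -0.60. E2F7 was at 0.34, 0.74 and 0.30, and of these only the MIAT value was called. With LUCAT1 knockdown the E2F7 groups overlapped (0.74 ± 0.38, limma adjusted p = 0.29). Replicate 1 held 2.19 RPKM there, between the controls at 2.11 and 2.31, and the libraries with low OTX2 held 5.80 and 4.37 RPKM. E2F1 was at -1.05 in MIAT, -0.24 in LUCAT1 and -0.54 in LINC00704 knockdown.

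**Figure D5:**
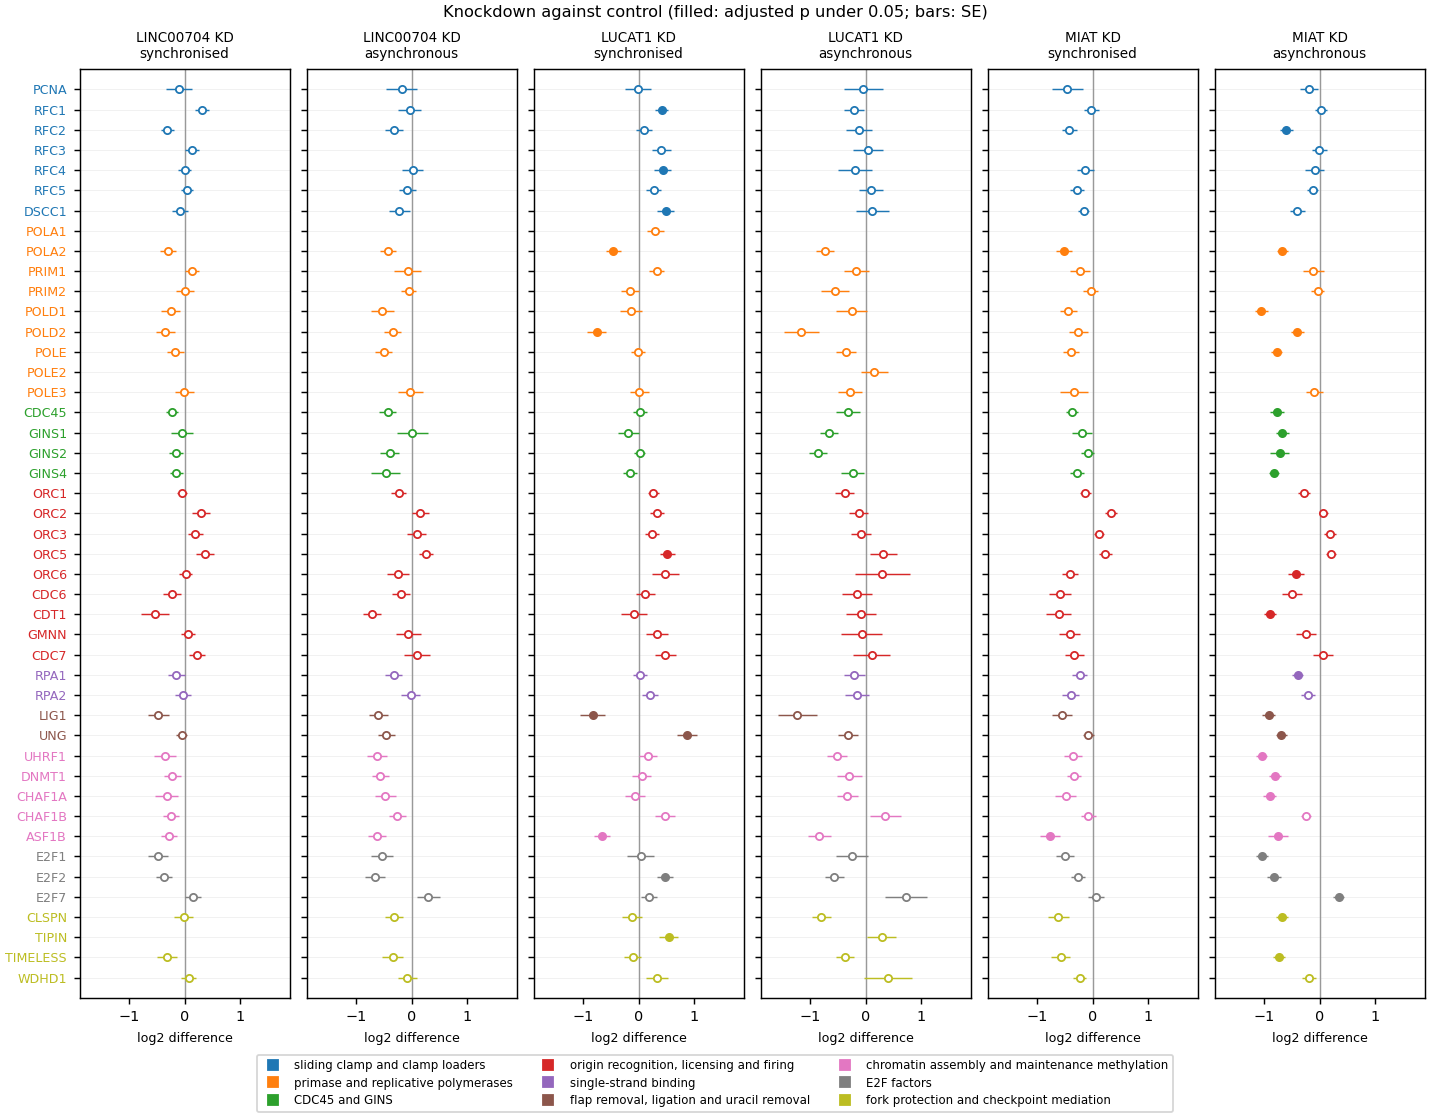
Difference of knockdown from control for each tested member in 6 comparisons (points, log2; bars, SE), coloured by role, with filled points where the limma adjusted p is under 0.05. The asynchronous MIAT panel has 23 filled points, 22 of them left of 0, and the synchronised LUCAT1 panel has 11.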

How the data were processed

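The study has 96 samples. RNA was measured in 91 of them, which have columns in 10 tables, and the 5 chromatin samples were not used here. Per the submitters' processing notes, reads were handled with STAR 2.5.3, featureCounts 1.6.1, edgeR, Bowtie2 2.3.4.3 and HOMER 4.10.3 on GRCh38. The authors deposited RPKM per gene, with a length that spans the whole gene, and the asynchronous tables also hold the authors' log2 fold changes, p-values and FDR. Values were analysed as log2(RPKM + 0.25) with limma 3.58.1 in R 4.3.3, within each table, for genes at 0.5 RPKM or more in at least 2 libraries. P-values were adjusted by Benjamini-Hochberg over all genes tested and called under 0.05. Multiplying RPKM by length gave whole reads for 100% of values up to 200 reads (tolerance 0.05). These were used for depth, 6.39 to 50.5 Mreads per library, and for the read numbers quoted, and not for tests. Genes were named when called, with the extremes of comparisons that had no call. The members and lists were chosen with earlier results of these data known. On simulated data in the nuclear input windows comparison (9633 genes), 51% of genes changed by 1 and 88% of those changed by 2 (log2) were called. Same-numbered nuclear input libraries deviated together (15 pairs, correlations 0.627 to 0.861), so the replicate number was used as a block there. In whole-cell input RNA the 10 window pairs did so more strongly (0.878 to 0.939), but over all 15 pairs correlations went down to -0.562. In whole-cell nascent RNA the 10 window pairs were at 0.289 to 0.594. The main whole-cell tests have no block, so deviation shared by same-numbered libraries is part of their spread. Alternatives covered pseudocount, filter, scaling, block and left-out libraries.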

Additional observations from a re-analysis of the deposited data

Results flagged for a closer look

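In 4 genes every library moved one way in 1 setting and the other way in another, and these differences between settings were not tested. UNG was 0.87 higher after LUCAT1 knockdown in synchronised cells, or 0.55 without the 3 libraries of low OTX2, and at -0.32 in asynchronous cells (log2 differences). E2F1 at T0-2 was at 0.38 against asynchronous cells in whole-cell nascent RNA and at -0.89 in nuclear nascent RNA. POLE3 at T0-2 was at 0.56 in whole-cell nascent RNA and at -0.36 in nuclear input RNA. WDHD1 at T8-10 against T0-2 was at 0.22 in whole-cell nascent RNA and at -0.0628 in nuclear nascent RNA.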

How the results depend on the processing

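All counts here are members called. Where no share of genes stands beside a count, that count describes the processing and not the members. Each called member was followed under the alternatives, with all comparisons and settings pooled. Of these 344 results for single genes, 286 kept their direction and side of the threshold, 58 lost the call and 0 reversed. The pooled count hides differences between comparisons. Calls of the nuclear windows, nuclear T0-2 and synchronised MIAT comparisons were each lost when some single library was left out. With the replicate block, windows against asynchronous cells gave 2 in each whole-cell table and 17 in nuclear input RNA, beside 34.4% of genes in the latter. At T0-2 the block gave 19 in nuclear input RNA, beside 35.8%. For T8-10 against T0-2 it gave 1 in nuclear nascent and 14 in nuclear input RNA, beside 22.2% in the latter. Asynchronous LUCAT1 knockdown gave 2 with the block. The replicate block with the window libraries alone was a setting chosen after the data were seen. With it T8-10 against T0-2 gave 1, 11 and 15 in whole-cell nascent, whole-cell input and nuclear input RNA. The shares of all genes called there were 2.14%, 9.73% and 25.2%. In the asynchronous knockdowns the numbers were not taken as pairs, and in the synchronised tables the knockdown column names carry numbers from 1 to 3 that do not match the titles. Same-numbered libraries there deviated together in some pairs only (correlations -0.661 to 0.812), so these numbers were not taken as pairs. A replicate block on them, chosen after the data were seen, gave 6 for LINC00704, 18 for LUCAT1 and 5 for MIAT knockdown, beside 16.8%, 40.8% and 15.7% of genes. The LINC00704 count includes ORC5, which passed the filter through knockdown libraries alone. In the LUCAT1 fit ORC5, TIPIN, RFC3 and POLA1 were tested through knockdown libraries alone. Calls of such genes cannot stand as support for a rise. Leaving out LUCAT1 KD S0 library a, S2 library a and S6 library b, also chosen after the data were seen, gave 3. Quantile normalization gave 1 for whole-cell nascent windows, 1 for nuclear nascent T8-10, 1 for nuclear input T0-2, 5 for synchronised LUCAT1 and 1 for synchronised MIAT knockdown. Median scaling gave 1 for nuclear nascent T8-10, 1 for nuclear input T0-2 and 6 for synchronised LUCAT1 knockdown. Without a filter nuclear input gave 5 for windows and 1 for T0-2, and a filter of 1 RPKM gave 1 for nuclear input T0-2 and 1 for synchronised MIAT knockdown. Leaving out 1 library gave 0 to 4 for nuclear nascent windows, 0 to 1 for its T0-2, 0 to 3 for its T8-10 (3 without T8-10 replicate 1), 0 to 2 for nuclear input windows, 0 to 1 for its T0-2, 0 to 3 for LINC00704, 4 to 18 for LUCAT1 and 0 to 10 for MIAT in synchronised cells, and 0 to 19 for LUCAT1 and 16 to 23 for MIAT in asynchronous cells. With 2 libraries per window, changes under 1 (log2) could often be missed.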
